A study of Mus musculus with 9 samples.

Results

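*Clasp2*, *Pam* and *Ncam1* are 3 of the 17487 genes listed over the 9 deposited tables of single cells from the mouse neocortex at E18.5. They were chosen by their measured values, as genes among the largest rises in upper layer cells of libraries KO4 and KO5 over WT2, WT3 and WT4, and all 3 were found in every library. Their values in those 5 libraries are therefore given as a description, with no test. Each library came from 1 embryo of the Tcf4ex4WT/lacZ line, with 5 libraries labelled WT (wildtype) and 4 labelled KO (*Tcf4* knockout), and the embryos were littermates bred from haploinsufficient parents. *Tcf4* encodes a class I basic helix-loop-helix transcription factor, and the labels name no promoter or cell type that limits the knockout.

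CLASP2 binds the growing plus ends of microtubules and anchors them at the cell cortex, and it is known for roles in axon growth and neuronal migration. PAM, peptidylglycine alpha-amidating monooxygenase, is a copper-dependent enzyme of secretory granules that amidates the carboxyl end of neuropeptides. NCAM1 is an immunoglobulin superfamily adhesion molecule on neurons and glia, and carries polysialic acid in the developing brain. The genes lie apart. On GRCm38, *Clasp2* (ENSMUSG00000033392) spans chr9:113741473-113919682 on the + strand, *Pam* (ENSMUSG00000026335) chr1:97795114-98095646 on the − strand and *Ncam1* (ENSMUSG00000039542) chr9:49502136-49798925 on the − strand, and all are protein coding.

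TCF4 is known to bind E-boxes, and the 250 bases upstream of the gene starts are shown from the RefSeq promoter table (GRCm38.p6). They run 5′ to 3′ along the gene, with each CANNTG, the general E-box, in capitals. Control of the members by TCF4 was not tested. The motif reads the same on both strands. The sequences are chr9:113741223-113741472 on the + strand for *Clasp2* and chr1:98095647-98095896 on the − strand for *Pam*, and 2 of the 3 members matched the table.
Clasp2: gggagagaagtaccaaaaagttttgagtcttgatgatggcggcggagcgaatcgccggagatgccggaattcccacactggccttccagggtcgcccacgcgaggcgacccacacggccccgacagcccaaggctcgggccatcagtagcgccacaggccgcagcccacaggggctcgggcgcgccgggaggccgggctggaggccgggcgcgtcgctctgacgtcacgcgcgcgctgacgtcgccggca
Pam: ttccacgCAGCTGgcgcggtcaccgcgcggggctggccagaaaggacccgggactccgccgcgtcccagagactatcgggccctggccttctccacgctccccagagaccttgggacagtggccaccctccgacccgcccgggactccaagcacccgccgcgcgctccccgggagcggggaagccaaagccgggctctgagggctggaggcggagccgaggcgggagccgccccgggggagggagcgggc
The *Clasp2* stretch holds 0 and the *Pam* stretch 1 CANNTG. The table lists 2 further starts of *Clasp2*, inside the gene, whose windows chr9:113793080-113793329 and chr9:113812336-113812585 hold 2 CANNTG each. It also lists another start of *Pam*, whose overlapping window chr1:98095633-98095882 holds 0. Of 32851 promoters of the same length, 66.2% hold at least 1, so these counts do not set the members apart. Both printed stretches are rich in G and C (70.0% and 75.6%, against a median of 52.4% over all promoters).

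Some libraries stand apart or go against their labels, and the results below depend on them. *Tcf4*, the targeted gene, measured 4.65 mean unique molecular identifiers (UMIs) per 10000 in WT1, 12.2 in WT2, 12.6 in WT3, 12.2 in WT4 and 7.20 in WT5, over all kept cells. It measured 16.7 in KO1, 9.12 in KO2, 9.28 in KO4 and 7.58 in KO5. The libraries labelled WT1 and WT5 were thus below every KO library and the library labelled KO1 was above every WT library. According to its methods, the study left out samples with few cells after filtering and also a WT animal whose *Tcf4* was below that of the KO, which it does not name. All 9 libraries are kept here under their labels. The kit counts 3′ ends and the allele name places the lacZ cassette at exon 4, so *Tcf4* counts check the labels only in part. Deposited UMIs ran from 348105 to 29767293 per library and kept cells from 118 to 6174, and WT1 and KO2 kept 126 and 118 cells. The median UMIs per kept cell were 2217.5 to 4358, and no pair of libraries shared more than 46 cell barcodes, 0.943% of the smaller library.

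Cells were assigned to classes by marker genes, and a cell took a class when it had UMIs of at least 2 of its markers and of more of them than of any other class. In the gates with at least 20 cells in a library, every marker present in the data was detected. None of these gates had more markers of another class than of its own among its 10 leading genes. The cells were gated on these same markers, so neither count tests the gate names. Gates with fewer cells in every library were not checked. Mef2c, Neurod2 and Dab1 led the upper layer gate beside its own markers, Apoe and Ctsd the microglia gate, and Sparc and Igfbp7 the endothelial gate. Of the 10 leading genes of the endothelial gate, 1 was its own marker and 1 a marker of another class. Of 19672 kept cells, 33.8% took no class.

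*Clasp2* differed between libraries far more than between cell classes. Over all kept cells it measured 0.73 UMIs per 10000 in WT2, 1.11 in WT3 and 0.79 in WT4, and 4.57 in KO4 and 4.86 in KO5. WT1 (6.63), WT5 (5.36) and KO1 (1.18) did not follow their labels. KO2, at 3.53, lay between WT3 and KO4. The range of the WT libraries thus enclosed every KO library. These means rest on 133 to 4863 *Clasp2* UMIs per library. Inside a library, the class with the most *Clasp2* had 1.23 to 2.86 times the level of the class with the least, in the 7 libraries with at least 3 classes of 20 or more cells.

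*Pam* had the same order at its extremes. It measured 0.70 in WT2, 1.957 in WT3 and 0.92 in WT4, against 4.18 in KO4 and 4.26 in KO5. WT1 was at 5.38, WT5 at 3.64, KO1 at 1.75 and KO2 at 4.22. KO2 lay between KO4 and KO5, and KO1 between WT4 and WT3. Unlike *Clasp2*, *Pam* also differed widely between classes. Its highest class had 7.36, 8.55 and 11.6 times the level of its lowest in WT2, WT3 and WT4. The same ratio was 1.39 to 2.42 in WT5, KO1, KO4 and KO5.

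*Ncam1* measured 5.27 in WT2, 5.50 in WT3 and 6.86 in WT4, and 16.8 in KO4 and 15.3 in KO5. WT5 was the highest of all at 18.6, and WT1 was at 10.2. KO1 (6.50) and KO2 (6.22) lay within the range of WT2, WT3 and WT4. The highest class of *Ncam1* had 3.56 to 3.97 times the level of its lowest in WT2, WT3 and WT4. In WT5, KO1, KO4 and KO5 this ratio was 1.32 to 2.53. KO2 was therefore near KO4 and KO5 for *Pam*, somewhat below them for *Clasp2*, and near the low libraries for *Ncam1*.

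**Figure D1:**
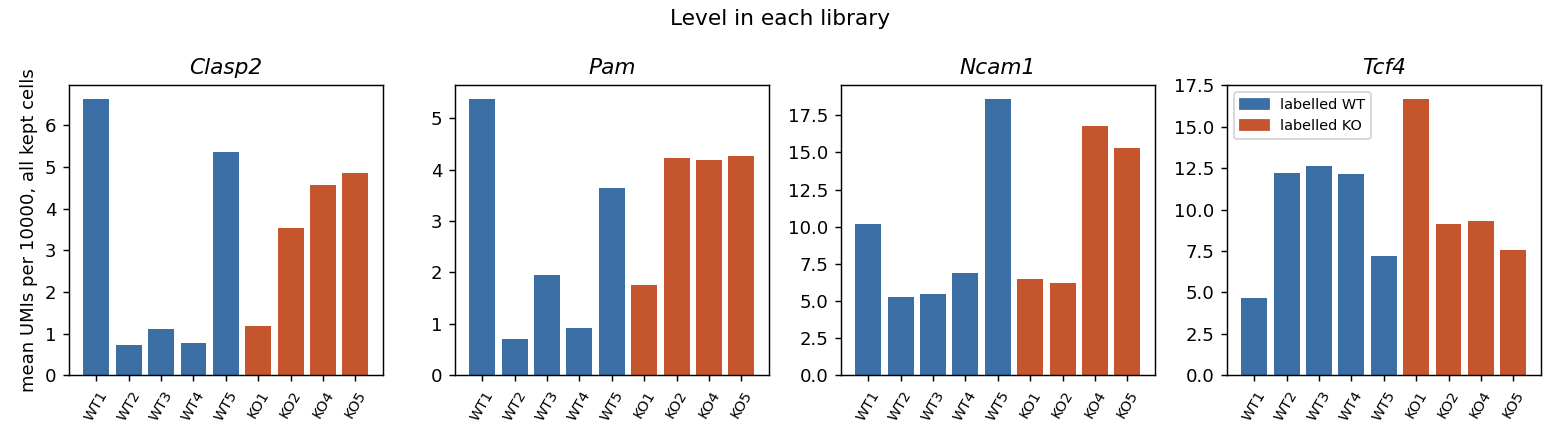
Mean UMIs per 10000 over all kept cells (y axis) in each of the 9 libraries (x axis), 1 bar per library, blue for those labelled WT and orange for those labelled KO, in a panel for each member and for *Tcf4*. *Clasp2* is at 0.73 to 1.18 in WT2, WT3, WT4 and KO1 and at 3.53 to 6.63 in the others, and *Tcf4* is lowest in WT1 (4.65) and highest in KO1 (16.7).

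The libraries outside the contrast that chose the members were compared as labelled, and the fitted differences had the opposite sign. Earlier results of these data were known when the members were chosen, and WT1, WT5 and KO1 went against their labels in *Tcf4*. The comparison is therefore not an independent test of the labels. In WT1 and WT5 *Clasp2* averaged 5.996 ± 0.90 UMIs per 10000 (SD, n = 2) and in KO1 and KO2 2.35 ± 1.66 (SD, n = 2), a difference on the log2(value + 1) scale of −1.15 ± 0.36 (SE). *Ncam1* averaged 14.4 ± 5.94 and 6.36 ± 0.20 (difference −1.01 ± 0.33), and *Pam* 4.51 ± 1.23 and 2.98 ± 1.74 (difference −0.52 ± 0.35). None passed the limma fit across all genes, with adjusted p of 0.41 for *Clasp2*, 0.41 for *Ncam1* and 0.70 for *Pam*. That fit called 0 of 8534 genes (0%), with 762 at an unadjusted p under 0.05, and edgeR called 0, with 631 unadjusted. A two-sided exact permutation test gave p = 0.33 for *Clasp2*, 0.33 for *Ncam1* and 0.67 for *Pam*, and 0.33 is the smallest that 2 against 2 allows. Both KO libraries lay below both WT libraries for *Clasp2* and *Ncam1*, and the groups overlapped for *Pam*.

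Over all 5 WT and 4 KO libraries as labelled, *Clasp2* averaged 2.92 ± 2.84 (SD, n = 5) and 3.53 ± 1.67 (SD, n = 4). *Pam* averaged 2.52 ± 1.97 and 3.60 ± 1.23, and *Ncam1* 9.29 ± 5.57 and 11.2 ± 5.62. The spread within each group exceeded the difference of the means for all 3 genes. The limma fit over these libraries called 0 of 9118 genes (0%), with 297 at an unadjusted p under 0.05, and edgeR called 0, with 143 unadjusted.

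The haemoglobin content of the cells moved with *Clasp2* and *Pam* between libraries, and with *Ncam1* except in KO2. The median haemoglobin share of a kept cell was 0.042% to 0.072% in WT2, WT3 and WT4 and 0.024% in KO1, and was 0.178% in WT1, 0.453% in WT5, 0.150% in KO2, 0.271% in KO4 and 0.751% in KO5. The shares of cells over the haemoglobin limit of 1% were 13.9% in KO4 and 40.6% in KO5, and 0.42% to 4.34% in the others. The mitochondrial share was 3.58% to 4.45% in WT2, WT3 and WT4 and 4.36% to 4.91% in the others. The part of blood RNA, cell quality or depth in the members' levels was not tested. Within libraries, the correlation over cells of a member's log2 level with the haemoglobin share was −0.119 to 0.189 in the 9 libraries.

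The contrast between KO4 and KO5 and WT2, WT3 and WT4 was seen in every class with at least 20 cells in all 5 libraries. In upper layer cells *Clasp2* was at 0.73, 1.40 and 0.87 in WT2, WT3 and WT4 and at 4.62 and 4.78 in KO4 and KO5. *Pam* was at 0.58, 1.67 and 0.97 against 4.06 and 4.13, and *Ncam1* at 7.06, 7.73 and 8.80 against 15.5 in KO5 and 18.1 in KO4. KO4 and KO5 were above all of WT2, WT3 and WT4 in 6 of 6 classes for *Clasp2* and *Ncam1*, and in 5 of 6 for *Pam*. The share of all tested genes with that order was 12% in the upper layer gate, 7.82% in the deep layer gate, 10.8% in newborn neurons, 10.9% in intermediate progenitors, 16.8% in cycling cells and 13% in radial glia or astrocytes. The choice of members used the upper layer contrast of the same libraries, so nothing is read from these counts. The exception was *Pam* in intermediate progenitors, where WT3 (5.34) was above KO5 (4.68).

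Over the 6 classes, the added amount, averaged over KO4 and KO5, varied less than the ratio did. Microglia and endothelial cells, described below, are not among the 6. The mean of KO4 and KO5 exceeded that of WT2, WT3 and WT4 by 3.27 to 3.995 UMIs per 10000 for *Clasp2*, by 3.02 to 3.71 for *Pam* and by 8.91 to 10.99 for *Ncam1* over the 6 classes. The average hides a gap between the libraries for *Pam* in intermediate progenitors, where KO4 was at 8.63 and KO5 at 4.68, a mean of 6.65 ± 2.79 (SD, n = 2), against 3.13 ± 1.96 (SD, n = 3) in WT2, WT3 and WT4. The ratios of the same means ranged more widely, from 4.68 to 8.16 for *Clasp2*, 2.13 to 7.32 for *Pam* and 2.13 to 4.41 for *Ncam1*. The smallest ratio of *Ncam1* was in upper layer cells, where its level in WT2, WT3 and WT4 was highest (7.86 ± 0.88, SD, n = 3), and the largest in intermediate progenitors, where it was lowest (2.80 ± 0.59, SD, n = 3).

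**Figure D2:**
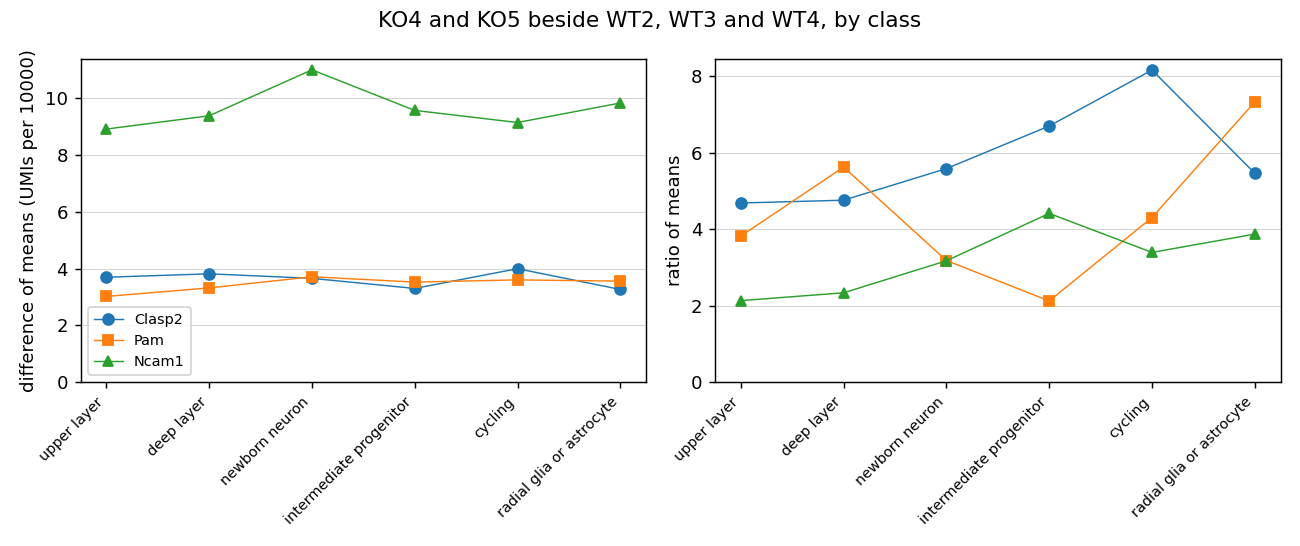
The mean of KO4 and KO5 set beside the mean of WT2, WT3 and WT4 in 6 classes (x axis), as a difference in UMIs per 10000 (left) and as a ratio (right), with a line for each member. The difference of *Ncam1* stays between 8.91 and 10.99 while its ratio runs from 2.13 to 4.41.

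In cells outside the neural lineage KO4 and WT5 again lay above WT4. Microglia, the immune cells of the brain, had 0.86 UMIs of *Clasp2* per 10000 in WT4 (56 cells), 5.25 in KO4 (55 cells) and 5.69 in WT5 (20 cells). *Ncam1* was at 3.06 in WT4 microglia, against 16.7 in KO4 and 17.9 in WT5, and *Pam* at 0.77, 3.56 and 3.54. In WT4 the microglial *Ncam1* level was well below that of upper layer cells (8.80), whereas in KO4 it was close to it (18.1), as it was in WT5 (18.7). Endothelial cells had 2.23 UMIs of *Ncam1* per 10000 in WT4 (30 cells), 12.8 in KO4 (43 cells) and 13.2 in WT5 (24 cells). Their *Clasp2* was at 0.47 in WT4, 2.84 in KO4 and 2.52 in WT5, and so below the upper layer level of each library (0.87, 4.62 and 5.50). Here KO4 lay above WT5, the reverse of the order over all cells, although the 2 values rest on 36 and 16 UMIs. Endothelial *Pam* was at 0.85, 6.31 and 3.90, and in KO4 above the upper layer level of 4.06. WT2, with 20 endothelial cells, had 0.41 of *Clasp2*, 0.32 of *Pam* and 1.78 of *Ncam1*, and the remaining libraries held fewer than 20 cells of either gate.

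Detection gave the same picture. At least 1 *Clasp2* UMI was found in 33.5% of WT4 upper layer cells (95% exact binomial interval 31.1 to 35.9, 1536 cells) and in 66.7% of KO4 (63.7 to 69.7, 965 cells). Every kept cell was then thinned to 1800 UMIs, because depth differed, and *Clasp2* was found in 13.7% of WT4, 54.5% of KO4 and 61.7% of WT5 upper layer cells. The thinned shares in microglia were 14.3% in WT4, 57.1% in KO4 and 57.1% in WT5, so that upper layer shares of *Clasp2* were not above those of microglia by more than the intervals. For *Ncam1* the thinned shares were 73.0% in upper layer cells and 30.4% in microglia of WT4, but 93.9% and 94.6% in KO4 and 96.2% and 95.2% in WT5. Thinned *Pam* was found in 13.4% and 10.7% of these cells in WT4 in 51.8% and 30.4% in KO4, and in 48.6% and 47.6% in WT5. The microglial share of *Pam* was thus below the upper layer share by more than the intervals in KO4 but not in WT4 or WT5. Unthinned, *Ncam1* was found in 93.6% of upper layer cells and 42.9% of microglia in WT4, and in 97.5% and 98.2% in KO4. Intervals cover counting error only. An upper layer share no higher than that in microglia does not by itself show expression in upper layer cells, and the part of free RNA in these shares was not tested.

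**Figure D3:**
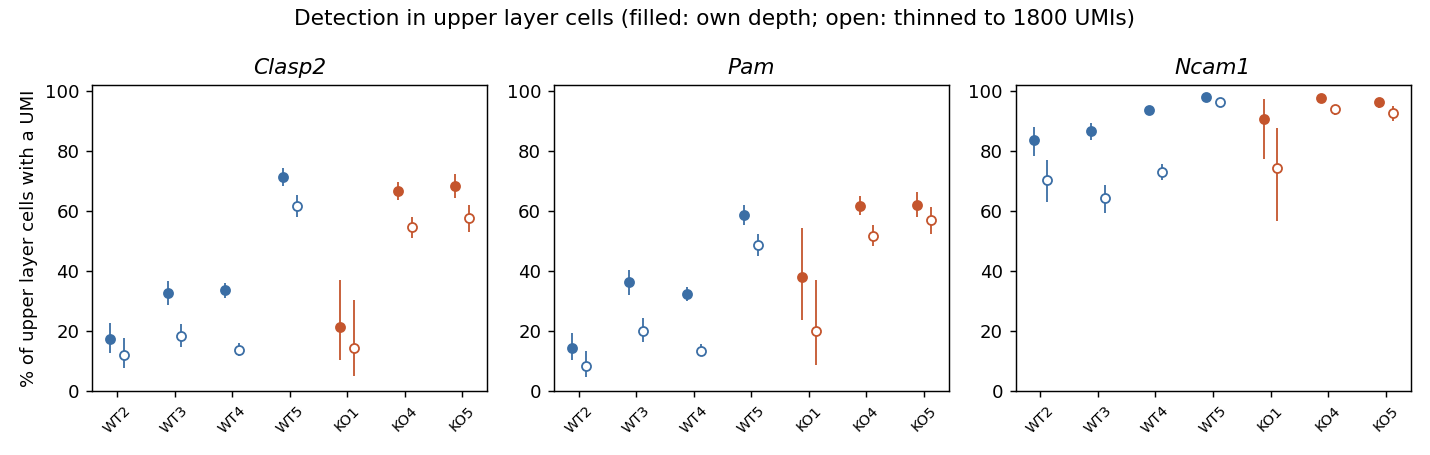
Detection in the upper layer gate, as the percent of its cells with a UMI (y axis), in the 7 libraries with at least 20 such cells (x axis), filled at the cells' own depth and open after thinning to 1800 UMIs, with 95% exact binomial intervals, blue for WT and orange for KO. Thinned *Clasp2* is at 12.1% to 18.2% in WT2, WT3, WT4 and KO1 and at 54.5% to 61.7% in WT5, KO4 and KO5.

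The library labelled WT5 kept its place in each class. Among the 6 classes it was above both KO4 and KO5 in 6 for *Clasp2* and in 6 for *Ncam1*. For *Pam* it was above both in 1, between the WT and KO libraries in 4, and below the highest of WT2, WT3 and WT4 in intermediate progenitors. KO1 had at least 20 cells in 4 of these classes and never reached the lower of KO4 and KO5. It was at or below the highest of WT2, WT3 and WT4 in 3 of 4 for *Pam*, 2 of 4 for *Ncam1* and 1 of 4 for *Clasp2*. In its upper layer cells (42 cells) *Clasp2* was at 0.66, *Pam* at 1.502 and *Ncam1* at 9.15. KO2 and WT1 had 7 and 9 upper layer cells, too few for a class value.

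**Figure D4:**
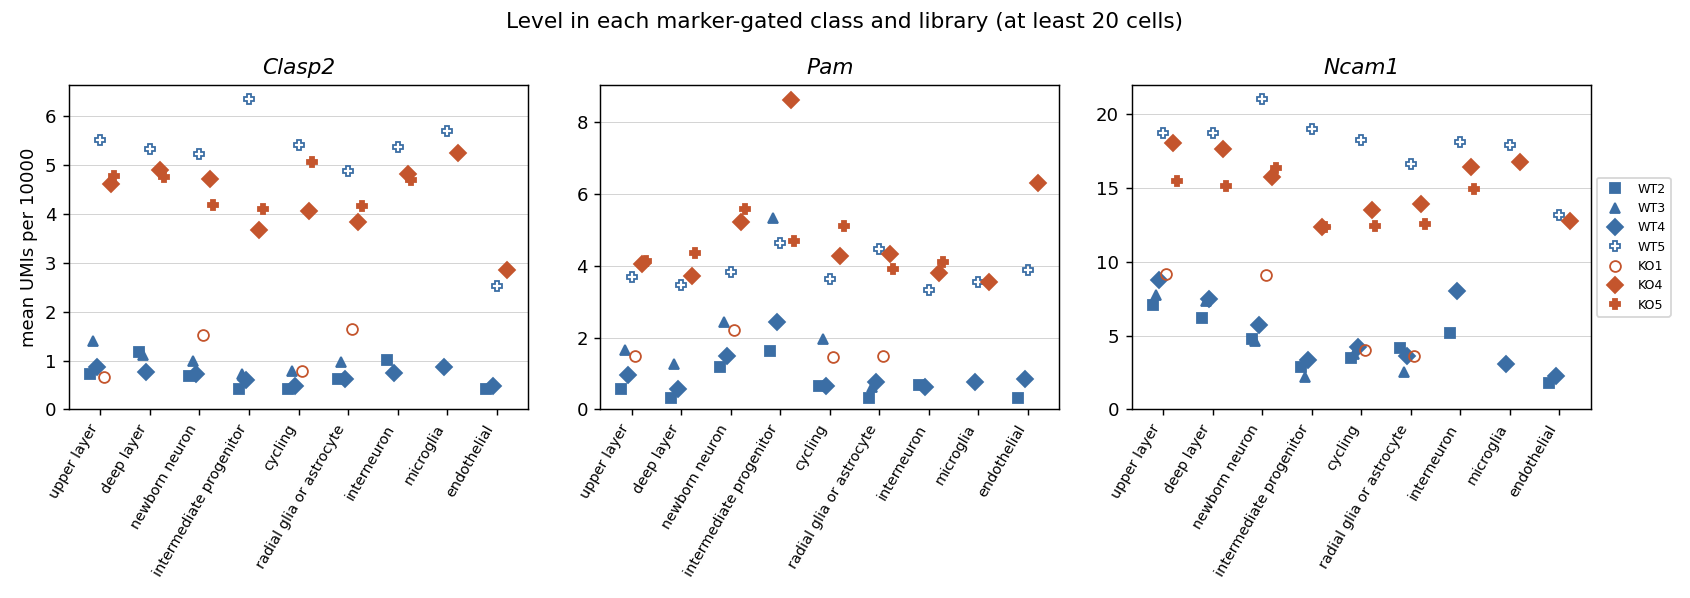
Mean UMIs per 10000 (y axis) in each class (x axis), 1 point per library with at least 20 cells, blue for WT and orange for KO, with WT5 and KO1 as open symbols and a panel per member. WT5 sits with KO4 and KO5 for *Clasp2* in every class, and KO1 near WT2, WT3 and WT4, for example at 5.50 and 0.66 in upper layer cells.

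Classes were next compared inside libraries, a contrast that did not choose the members, in a limma fit with class and library terms. *Ncam1* was lower in the radial glia or astrocyte gate than in the upper layer gate in 7 of 7 libraries, by −0.71 ± 0.12 (SE) on the log2(value + 1) scale (adjusted p = 0.000160). It was lower in cycling cells in 7 of 7 libraries as well (−0.62 ± 0.12, adjusted p = 0.000877). For example, it fell from 8.80 to 3.61 UMIs per 10000 in WT4 radial glia, from 18.1 to 13.9 in KO4 and from 18.7 to 16.6 in WT5. With WT2, WT3 and WT4 alone, the difference was −1.02 for radial glia and −0.88 for cycling cells. Neither deep layer cells (−0.13 ± 0.12) nor interneurons (−0.24 ± 0.13) passed the test. The fit called 20.5% of all 11062 genes in radial glia, 14.1% in cycling cells, 0.154% in interneurons and 0.136% in deep layer cells.

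*Clasp2* and *Pam* passed in none of these 4 contrasts. *Clasp2* differed by −0.07 ± 0.08 (SE) in radial glia and −0.15 ± 0.08 in cycling cells, and *Pam* by −0.13 ± 0.09 and 0.03 ± 0.09. With edgeR on the summed UMIs *Clasp2* was called lower in radial glia (−0.37, adjusted p = 0.0125) and cycling cells (−0.40, adjusted p = 0.00500). In WT2, WT3 and WT4 alone limma also called *Clasp2* in cycling cells (−0.36, adjusted p = 0.00676) and *Pam* in radial glia (−0.38, adjusted p = 0.0148).

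*Pam* had its highest class level in intermediate progenitors, the dividing cells that give rise to projection neurons, in WT2, WT3, WT4, WT5 and KO4. In KO5 it was higher in newborn neurons (5.59) and cycling cells (5.10), and KO5 and WT5 held only 26 and 23 intermediate progenitors. *Pam* in intermediate progenitors was above the upper layer level in 6 of 6 libraries, at 1.62 against 0.58 UMIs per 10000 in WT2, 5.34 against 1.67 in WT3 and 2.43 against 0.97 in WT4. The values were 8.63 against 4.06 in KO4, 4.68 against 4.13 in KO5 and 4.64 against 3.70 in WT5. In a fit with the intermediate progenitor and newborn neuron gates added, chosen after these values were seen, the difference was 0.69 ± 0.12 (SE) with an adjusted p of 0.000293, and 5.41% of 11509 genes were called. *Ncam1* was lower there (−0.77 ± 0.13, adjusted p = 0.000494), in 5 of 6 libraries. In newborn neurons *Pam* was above upper layer cells in 7 of 7 libraries but did not pass (0.32 ± 0.12, adjusted p = 1).

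**Figure D5:**
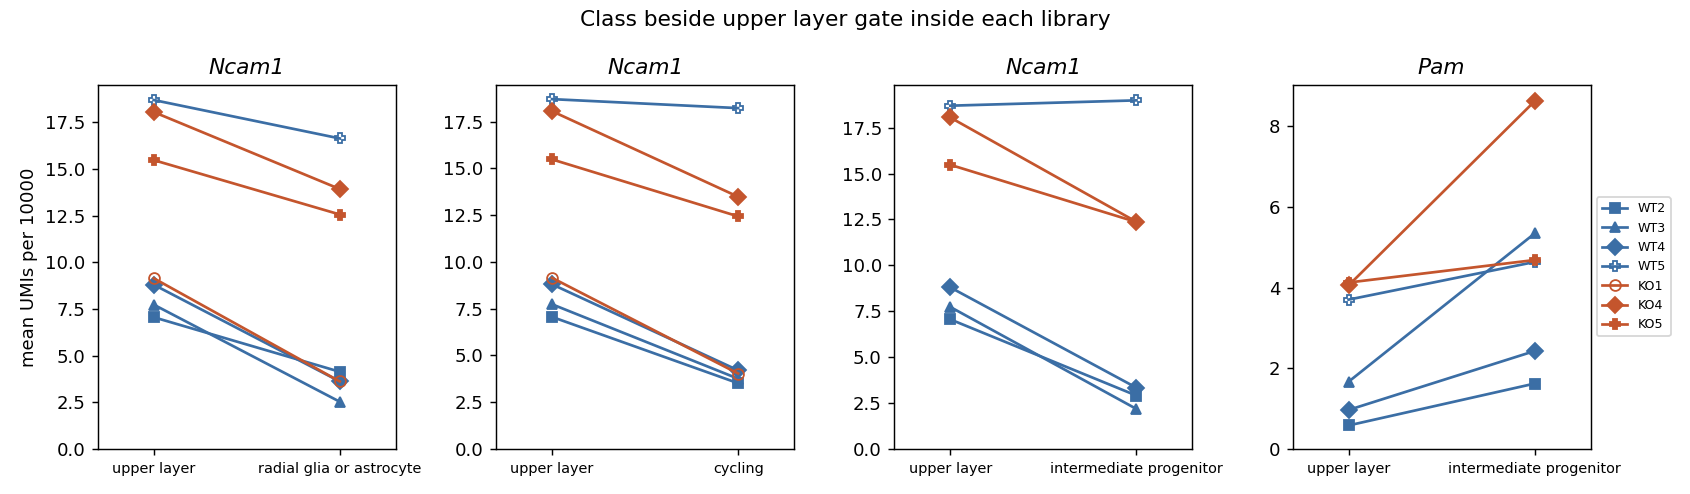
Mean UMIs per 10000 (y axis) in the upper layer gate and in a second gate of the same library (x axis), joined by a line per library, blue for WT and orange for KO, with WT5 and KO1 as open symbols. *Ncam1* falls in 7 of 7 libraries toward radial glia or astrocytes and toward cycling cells, and *Pam* rises in 6 of 6 toward intermediate progenitors.

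Within single libraries the Pearson correlation between members over upper layer cells was at most 0.42. Over upper layer cells, the Pearson correlation of the log2 levels of *Clasp2* and *Pam* was 0.20 in WT2 (250 cells), 0.42 in WT3 (542 cells) and 0.16 in WT4 (1536 cells). That of *Clasp2* and *Ncam1* was 0.11, 0.22 and 0.24, and that of *Pam* and *Ncam1* 0.08, 0.16 and 0.07. In WT5, KO4 and KO5 the 3 pairs of members ranged from −0.04 to 0.07, and Spearman's rho from −0.02 to 0.06. With *Actb*, *Clasp2* was at 0.30, 0.49 and 0.35 in WT2, WT3 and WT4 upper layer cells. *Pam* with *Actb* was at 0.19, 0.50 and 0.25 there, and *Ncam1* with *Actb* at 0.28, 0.44 and 0.38. In WT5, KO4 and KO5 the correlations with *Actb* were −0.01 to 0.17. Correlations of this size were thus not particular to pairs of members. WT2, WT3 and WT4 were thus higher for *Clasp2* with *Pam* at the cells' own depth, and all these cells share their library, depth and sparse counts. In KO1, over all its 331 kept cells, the pairs were at 0.27, 0.21 and 0.23. After thinning to 1800 UMIs the correlation of *Clasp2* and *Pam* in upper layer cells was 0.30 in WT3 and 0.15 in WT4. It was −0.0056 in WT2, below WT5 (0.010), KO4 (0.0045) and KO5 (0.059), so that WT2 was no longer higher than these libraries for this pair. Thinned *Clasp2* and *Ncam1* were at 0.144, 0.161 and 0.135 in WT2, WT3 and WT4, and at 0.014, 0.095 and 0.066 in WT5, KO4 and KO5. *Pam* and *Ncam1* were at 0.032, 0.094 and 0.107, and at 0.029, −0.038 and −0.059. Classes were assigned again after thinning, which left 182, 413 and 1105 upper layer cells in WT2, WT3 and WT4.

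The genes most like each member over the 9 libraries were ranked by the Pearson correlation of log2 levels among 2915 genes, as a description of points that differ in depth and cell make-up. For *Clasp2* they were *Sirt6* (0.997), *Actb* (0.985) and *Tmem181a* (0.982), for *Pam* *Supt16* (0.980), *Cdkn1b* (0.978) and 4933434E20Rik (0.974), and for *Ncam1* they included *Runx1t1* (0.978) and *Fau* (0.960). *Pam* was 21st for *Clasp2* (0.952), and *Ncam1* was 86th for *Clasp2* (0.795) and 107th for *Pam* (0.660). Over 57 points of a library and class the nearest were *Actb* (0.956), *Spock1* (0.945) and *Paip1* (0.942) for *Clasp2*. They were *Cdkn1b* (0.920), *Kdm6b* (0.871) and *Supt16* (0.863) for *Pam*, and *Dpysl2* (0.960), *Runx1t1* (0.951) and *Gnb1* (0.915) for *Ncam1*.

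*Actb* and *Nfia*, which led the same upper layer contrast, had a like pattern over libraries. *Actb*, the gene of cytoplasmic beta-actin, was at 40.5 to 64.3 UMIs per 10000 in WT2, WT3 and WT4 and at 49.9 in KO1, and at 142 to 200.3 in the other 5 libraries. *Nfia*, a transcription factor of glial and neuronal development, was at 2.27 to 3.43 in WT2, WT3 and WT4, and at 6.44 in KO1. It was at 7.48 to 10.2 in the other 5 libraries.

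Partners of the members were followed in lists chosen by function. In upper layer cells limma called 3.04% of 8350 genes, 195 higher and 59 lower in KO4 and KO5. The split was 263 and 24 with edgeR, 252 and 25 with DESeq2, and 388 and 361 with limma without WT4. By limma, 1 of 24 tested plus-end genes was called, *Tacc1*, a microtubule-associated protein (0.23 ± 0.04, adjusted p = 0.0116). It was at 0.014 to 0.096 UMIs per 10000 in WT2, WT3 and WT4 and at 0.22 and 0.26 in KO4 and KO5. At these low levels WT5 was at 0.29 and KO1 at 0.20, so that WT5 went against its label and KO1 did not. The median over that list was −0.11, against −0.04 for all genes. Of 21 peptide genes, 3 were higher, the neuropeptides *Npy* (1.16 ± 0.16, adjusted p = 0.00377) and *Sst* (0.67 ± 0.07, adjusted p = 0.000261) and *Uhmk1*, a kinase known to bind PAM (0.19 ± 0.04, adjusted p = 0.0329), with a list median of 0.03. *Npy* was at 0.25 to 0.97 in WT2, WT3 and WT4, 2.60 in KO4 and 2.59 in KO5, with 2.25 in WT5 and 0.38 in KO1, so that for *Npy* the last 2 went against their labels. WT5 and KO1 did so for *Sst* too. Its WT5 level (0.89) lay above KO4 (0.82) and KO5 (0.87). Its KO1 level (0.15) lay within the WT2 to WT4 range of 0.079 to 0.22. *Uhmk1* was low throughout, from 0.034 in WT3 to 0.26 in KO5. Its KO1 level (0.058) was below that of WT4 (0.084), and WT5 (0.11) lay between WT4 and KO4 (0.15). The neuropeptides *Npy* and *Sst* also serve as markers of the interneuron gate. Of 19 genes related to NCAM1, 1 was lower, *Cntn2*, an axonal adhesion molecule, which fell by 0.63 (SE 0.11, adjusted p = 0.00752), with a list median of 0.03. It was at 2.16 to 2.28 in WT2, WT3 and WT4, 1.29 in KO4 and 0.89 in KO5, and at 1.02 in WT5 and 3.44 in KO1. With WT5 and KO1 added as labelled, 0 genes were called in the upper layer gate by limma, with 483 at an unadjusted p under 0.05. In WT1 and WT5 against KO1 and KO2, and over all libraries, 0 genes of any list were called by limma.

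Between classes, calls were more frequent among all genes, at 20.5% in radial glia or astrocytes and 14.1% in cycling cells, and the counts of the lists stand beside these shares. In radial glia or astrocytes 9 of 22 NCAM1-related genes were lower and 2 higher than in upper layer cells, with a list median of −0.06, against 0.00 for all genes. *Cntn2* (−0.77), the adhesion molecules *L1cam* (−0.46) and *Chl1* (−0.41), and the growth cone protein *Gap43* (−0.44) were among those lower, with adjusted p of 4.33e-05 to 0.00797. *Fgfr1* (0.32) and *Fgfr2* (0.26), receptors of fibroblast growth factors, were higher. In cycling cells 8 of 22 were lower and 0 higher, led by *Cntn2* (−0.70), *Gap43* (−0.61), *L1cam* (−0.45) and *St8sia2* (−0.42), a polysialyltransferase that acts on NCAM1. These genes moved in the same direction as *Ncam1*.

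Of 25 plus-end genes, 6 were lower and 1 higher in radial glia or astrocytes, where 20.5% of all genes were called. *Gsk3b* (−0.34), *Mapre2* (−0.28) and *Apc* (−0.27) were lower and *Tacc1* (0.38) was higher. In cycling cells, where 14.1% of all genes were called, 2 were higher, *Tacc3* (0.84) and *Ckap5* (0.48), both known for roles at the mitotic spindle, and 3 were lower, among them *Nav1* (−0.31) and *Apc* (−0.26). Of 24 peptide genes, 2 were higher and 2 lower in radial glia or astrocytes and 3 were lower in cycling cells, in both cases a smaller share than among all genes. *Cpe*, carboxypeptidase E (1.004), and *Slc31a1*, a copper importer (0.18), were higher, and the granule proteins *Scg5* (−0.43) and *Chga* (−0.28) were lower. In cycling cells *Pcsk1n* (−0.48), *Scg5* (−0.43) and *Chga* (−0.22) were lower and 0 were higher. In interneurons *Sst* (1.49) and *Npy* (1.27) were higher, but they help to define that gate. In deep layer cells 0 genes of the lists were called by limma.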

How the data were processed

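Neocortical cells were profiled with the Chromium 3′ v2 kit. The authors aligned and counted UMIs with Cell Ranger (2.1.0 in the submitters' processing notes) on mm10 (GRCm38), and used Seurat 2.3.4. The 9 libraries were deposited by the authors as UMI counts (4 libraries) or as natural log (ln) values of 1 plus UMIs per 10000 (5 libraries). UMIs were recovered from the latter, with 100% of values whole within 1e-06. A gene absent from a table was set to 0.

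Cells with 1000 to 5000 genes, 1800 to 10000 UMIs, under 6% mitochondrial and at most 1% haemoglobin UMIs were kept, and no doublet caller was run. Means of UMIs per 10000 per library and class were tested on log2(value + 1), by limma 3.58.1 (trend, robust) with Benjamini-Hochberg adjustment at 0.05, and genes had to reach a mean of 0.1 in 2 libraries or more. As alternatives, recovered UMI counts were fitted by edgeR 4.0.16 (quasi-likelihood) or DESeq2 1.42.0. The main limma fit and edgeR were tested on simulated data for upper layer cells and for WT1 and WT5 against KO1 and KO2. The class fit was tested in that way for radial glia or astrocytes only. DESeq2, the fit over all 9 libraries and the other settings were not tested on simulated data. The members, lists and rules for naming genes (members, the 3 genes most like each, and up to 4 called genes per list and contrast) were chosen with earlier results of these data known, and 1 gene like *Ncam1* is not reported here. Each library is 1 embryo, so p-values of the genotype fits measure the spread between embryos and preparations together. Those of the class fits measure how class differences vary from library to library, as the library term takes up each library's own level. Numbers shared between WT and KO labels were checked as pairs.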

Additional observations from a re-analysis of the deposited data

Results flagged for a closer look

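*Pam* in KO1, at 1.75 UMIs per 10000 over all kept cells, lay far below the other 3 KO libraries (4.18 to 4.26), and its gap to the nearest of them was 0.966 of the range of the group, above Dixon's 95% critical value for 4 samples. KO4 and KO5, which chose *Pam* for its high level, are among those 3, so a low value beside them is a description and not a test. It was the only value of 12 checked on the 3 members past that limit, which chance passes in about 1 in 20 groups. The library labelled KO1 also had the highest *Tcf4* (16.7) and the lowest median haemoglobin share (0.024%). The part of either in this value was not tested.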

How the results depend on the processing

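The count of genes called in upper layer cells (254) was 0 with no filter on low genes (2417 at an unadjusted p under 0.05), 144 with thinned cells and 0 with WT5 and KO1 added as labelled. It ranged from 44 (without KO5) to 749 (without WT4) when a library was left out, and was 81 without KO4. edgeR called 287 and DESeq2 277. The differences of *Clasp2*, *Pam* and *Ncam1* there were 2.37, 2.098 and 1.19 with edgeR TMM, 2.37, 2.097 and 1.19 with edgeR RLE and 2.37, 2.11 and 1.19 with DESeq2, 2.17 for *Clasp2* and 1.95 for *Pam* with a pseudocount of 0.1, and 0.50, 0.69 and 0.45 with WT5 and KO1 added, which was chosen after seeing the data, as were the fits without WT5 and KO1, with WT2, WT3 and WT4 alone and with 7 classes.

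Leaving out 1 of the libraries that did not choose the members, which leaves an arm with 1 sample assumed to vary like the other group, gave 3 to 949 genes called (949 without KO2, 119 without KO1, 7 without WT5 and 3 without WT1). *Clasp2* then ranged from −1.68 to −0.62, *Pam* from −0.98 to −0.061 and *Ncam1* from −1.41 to −0.61, and all 3 were called without KO2 (adjusted p of 2.85e-07, 0.00563 and 0.0303).

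Genes called in radial glia (2273) were 3654 with edgeR and 1393 to 2454 with a library left out (1393 without WT4). In cycling cells (1561) they were 3966 with edgeR, 989 with thinned cells, 2360 with WT2, WT3 and WT4 alone and 746 to 1714 with a library left out, where 746 was without WT4, 944 without WT3 and 993 without WT2. In interneurons (17) they were 53 with edgeR and 232 with the 3 WT libraries alone, and in deep layer cells (15) 125 with the latter. *Clasp2* was called with edgeR in cycling cells (−0.40) and radial glia (−0.37) and with the 3 WT libraries alone in cycling cells (−0.36), as was *Pam* in radial glia (−0.38). The causes were not tested. *Ncam1* stayed called in radial glia and cycling cells in all alternatives run.

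The deviations of libraries from their group mean did not settle whether shared replicate numbers pair the samples. They correlated at −0.06 for WT1 with KO1, 0.30 for WT2 with KO2, 0.29 for WT4 with KO4 and 0.55 for WT5 with KO5. Of the KO libraries, KO2 was the nearest to WT2 and KO4 the nearest to WT4. WT1 was nearer to KO2 (0.19) and WT5 to KO4 (0.56), and different numbers went as low as −0.43 (WT2 with KO4). With the replicate block, over 8 libraries, 0 genes were called (198 at an unadjusted p under 0.05, against 146 without it), and the differences were 0.27, 0.50 and 0.13 for *Clasp2*, *Pam* and *Ncam1*. Depth limits WT1 and KO2, with too few cells for class values.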
